A study of Mus musculus with 3 samples.

Results

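The genes described here encode the apical-basal polarity complexes of epithelial cells: Pard3, Pard3b, Pard6b, Prkci and Prkcz of the Par complex, Crb2 and Crb3 of the Crumbs complex, and Scrib, Dlg1 and Llgl2 of the Scribble complex. They were chosen by name for their function, and all 10 were found among the 19938 genes that had a probe set of their own. The members and the further lists below were chosen with earlier results of these data known, so the counts that passed do not come from a blind choice. Their transcripts were measured in sorted ureteric duct cells of CD-1 mouse embryos, aged 10.5 days post coitum and at Theiler stage 18, that carried the transgene Tg(Hoxb7-EGFP)33Cos, in which the Hoxb7 promoter drives green fluorescent protein in the nephric duct and its branches. Each of the 3 samples was 1 dissected duct, dissociated with trypsin and sorted by fluorescence, and its RNA was amplified in 1 round before hybridisation to 1 Affymetrix array. The samples form a single group with no second genotype, stage or tissue. The comparison open to this design is therefore each gene against the background of its own array. The labels do not state the embryos' sex or whether the ducts came from separate litters, so spreads and p-values describe these 3 samples and may be technical.

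An epithelial cell has an apical surface facing the lumen, a basolateral surface facing its neighbours and the matrix, and a belt of junctions between them. The Par complex (Par3, Par6 and an atypical protein kinase C) and the Crumbs complex (Crumbs, Pals1 and Patj) mark the apical side and the junctions, while the Scribble complex (Scribble, Discs large and Lethal giant larvae) marks the basolateral side, and each side excludes the other, in part through phosphorylation by the atypical kinase. In the early kidney the nephric duct is a polarised tube from which the ureteric bud grows out.

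Signals are the authors' deposited log2 values. The background was taken from 1210 probe sets of odorant and pheromone receptor genes, whose products serve sensory neurons of the nose. Their 95th percentile served as the cutoff, at 5.70, 5.73 and 5.71 for arrays 1, 2 and 3. A gene is said to pass when its mean signal lay above this cutoff in limma's one-sided test at a Benjamini-Hochberg adjusted p under 0.05, taken over all 21789 single-gene probe sets. All 10 polarity genes passed, with 56.1% of all genes passing by the same rule. Their median signal was 6.91, against 6.04 for all genes. All genes include the receptor genes that set the cutoff, most of which cannot pass by construction. The shares and the median of all genes are therefore lower than without the receptors. With the cutoff at the receptors' 99th percentile, a mean of 6.38, 7 of the 10 passed, with 36.1% of all genes. With the first cutoff raised by 1 log2 unit 5 of the 10 passed (Pard6b, Prkci, Prkcz, Crb3 and Dlg1), with 28.3% of all genes. Probe sets differ in how well they bind, and this platform gives no length-scaled level, so the signals do not rank the transcripts of different genes by amount.

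The error of most of these values cannot be measured. For 9 of the 10 genes the deposited value was the same on all 3 arrays to 5 decimals; Pard3 was the exception. The p of such a gene reflects the differences between the 3 cutoffs and the moderation of the fit, and is too small. When tied probe sets were given the median spread of untied ones of similar signal, all 10 genes passed again, as did 10886 of all 19938 genes. These wider-spread p-values are the ones given below for the tied genes.

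The Par complex genes encode its scaffold, its adaptor and its kinases, and all 5 lay above background. Pard3 is the scaffold that recruits the complex to the junctions. It read 7.15, 7.10 and 6.80 on arrays 1, 2 and 3, a mean of 7.02 ± 0.19 (SD, n = 3), which is 1.31 log2 units above the mean cutoff (limma, adjusted p = 0.00063). Every array lay above its cutoff, and array 3 was the lowest. Pard3b encodes a paralogue of Par3 that lacks its binding to the atypical kinase. Its brighter probe set read 6.33 on each array, and its other one read 6.11 on each array. Both Pard3b probe sets passed (limma with the wider spread, adjusted p = 0.00049 and 0.0017), and both lay below the cutoff of the 99th percentile. Pard6b, the adaptor through which the GTPase Cdc42 acts on the kinase, read 7.20 on each array, 1.49 log2 units above the mean cutoff (limma with the wider spread, adjusted p = 3.58e-05).

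The kinase of the complex comes in 2 forms with separate genes. Prkci, which encodes atypical protein kinase C iota (called lambda in mouse), read 8.86 on each array. That is 3.15 log2 units above the mean cutoff and higher than the signal of 92.0% of all genes (limma with the wider spread, adjusted p = 3.42e-06). Prkcz, which encodes the zeta form, read 6.90 on each array from the brighter of its 2 probe sets, 1.19 log2 units above the mean cutoff (limma with the wider spread, adjusted p = 7.09e-05). The other Prkcz probe set read 5.76, 5.81 and 6.61 on arrays 1, 2 and 3. It stood high on array 3 alone, and its mean of 6.06 ± 0.48 (SD, n = 3) did not pass (limma, adjusted p = 0.18). Leaving out array 3 took its distance from the mean cutoff to 0.07 log2 units, against 0.35 with all arrays. The array's probe set numbers mostly run along the chromosomes, and this second probe set fell among genes of chromosome 7 (Map3k10 before it and Zfp974 after it), with 19 of its 20 nearest numbered neighbours there and 0 on chromosome 4, where the GRCm38.p6 annotation places Prkcz. Of the 20 neighbours of the brighter Prkcz probe set, 18 lay on chromosome 4, and the probe sets of the other members had 18 to 20 neighbours on their own gene's chromosome. Whether the second probe set measures Prkcz was not tested.

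**Figure D1:**
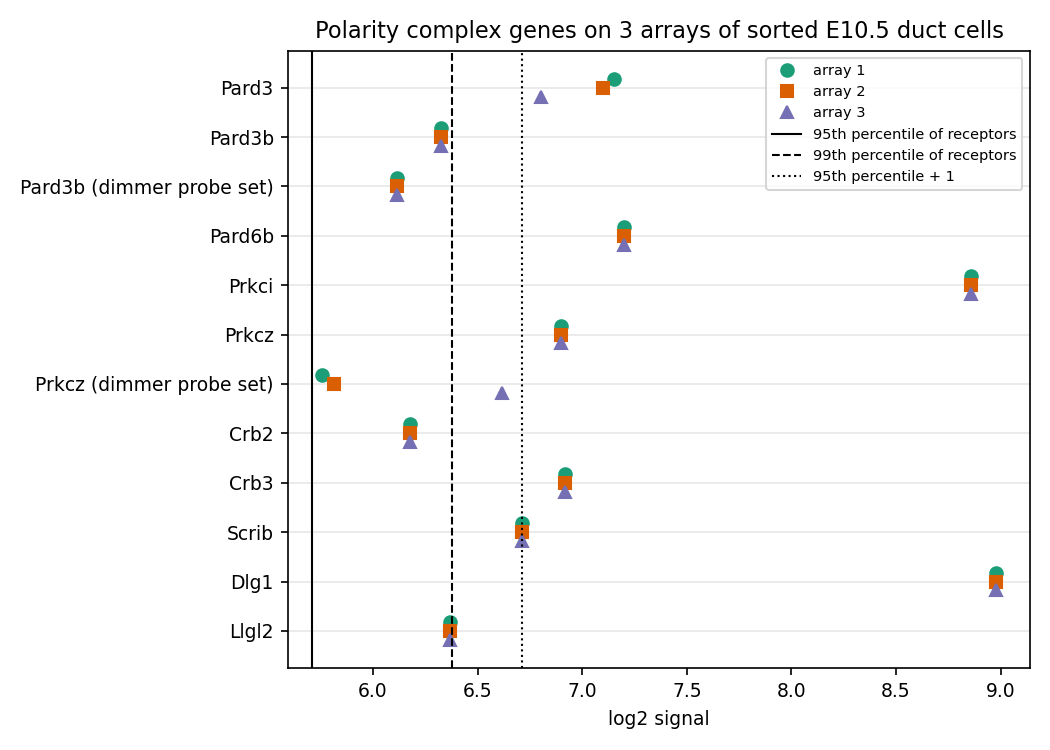
Log2 signal (x axis) of every probe set of the 10 polarity genes, 1 row per probe set and 1 symbol per array; vertical lines mark the mean cutoffs at the receptors' 95th percentile, their 99th percentile, and the 95th raised by 1 log2 unit. The symbols of 10 of the 12 probe sets stand at one value, while Pard3 and the dimmer Prkcz probe set spread over the arrays; Prkci and Dlg1 lie furthest right, and Crb2, Pard3b and Llgl2 lie left of the 99th percentile.

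The Crumbs genes encode the transmembrane proteins of the apical surface. Crb3, the Crumbs protein of most epithelia, whose loss in mice leads to cystic kidneys, read 6.92 on each array. This is 1.21 log2 units above the mean cutoff (limma with the wider spread, adjusted p = 6.7e-05), and Crb3 also passed at both higher cutoffs. Crb2, which in mice is needed at gastrulation and in the podocytes of the glomerulus, read 6.18 on each array. It was the dimmest of the 10 genes, 0.47 log2 units above the mean cutoff (limma with the wider spread, adjusted p = 0.00094) and at -0.20 relative to the 99th percentile. A mean at or above that of Crb2 was found for 20 (1.65%) of the 1210 receptor probe sets, and 4 (0.331%) reached that of Crb3.

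The promoter of Crb3 is shown with those of Pard6b and Prkcz because they hold the E-box letters CAGGTG, or CACCTG on the other strand, which are bound by repressors of the Snail and Zeb families; in human carcinoma cells ZEB1 is known to repress CRB3 and LLGL2. The sequences are RefSeq's, GRCm38.p6, 250 bases upstream of the outermost annotated start site, 5′ to 3′ on the gene's strand, with these letters in capitals: Crb3 at chr17:57061951-57062200 (+ strand), Pard6b at chr2:168080754-168081003 (+ strand) and Prkcz at chr4:155361429-155361678 (- strand).
Crb3: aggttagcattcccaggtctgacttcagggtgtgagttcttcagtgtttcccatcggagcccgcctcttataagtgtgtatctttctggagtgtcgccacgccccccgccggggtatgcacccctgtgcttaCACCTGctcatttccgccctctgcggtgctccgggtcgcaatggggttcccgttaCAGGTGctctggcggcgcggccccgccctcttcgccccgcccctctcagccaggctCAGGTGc
Pard6b: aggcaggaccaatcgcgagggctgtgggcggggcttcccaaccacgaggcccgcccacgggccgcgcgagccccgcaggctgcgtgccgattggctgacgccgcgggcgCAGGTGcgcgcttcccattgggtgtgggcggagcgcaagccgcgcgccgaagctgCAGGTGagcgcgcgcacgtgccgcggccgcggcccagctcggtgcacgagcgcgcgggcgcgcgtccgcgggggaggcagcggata
Prkcz: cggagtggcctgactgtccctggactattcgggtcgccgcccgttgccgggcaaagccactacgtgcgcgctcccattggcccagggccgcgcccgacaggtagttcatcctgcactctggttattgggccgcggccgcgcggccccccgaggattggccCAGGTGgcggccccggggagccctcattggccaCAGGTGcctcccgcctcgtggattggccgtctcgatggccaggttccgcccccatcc

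The Crb3 window held 3 matches, whose first letters lie 118, 63 and 7 bases before the start site, and its second annotated start site has a window overlapping the first, with the same 3 matches. The windows of Pard6b and Prkcz held 2 matches each, at 141 and 86 bases and at 90 and 57 bases before the start. In the 32851 windows of the same length in the table, 17.2% held at least 1 match, 2.06% at least 2, and 0.25% at least 3. The windows shown were picked for their matches, and the shares were not matched for base content. The shares therefore do not measure how unusual the shown windows are. RefSeq windows were matched for 8 members; those of Scrib and Llgl2 were not. Of these 8 genes, 4 had a match in some window (Pard3, whose second start site has 3 in its window, Pard6b, Prkcz and Crb3), and no window of Pard3b, Prkci, Crb2 or Dlg1 did. This count is by gene and cannot be set beside the shares above, which are by window. The share of all genes with a match in some window was not computed. By window, 6 of the members' 15 held a match, counting both overlapping Crb3 windows. A match is a description of the letters and not of binding. All the members passed, so the calls cannot show whether a match goes with signal. The repressor genes themselves, looked at after the values were seen, were measured too. Snai1 read 6.58 on each array and passed (limma with the wider spread, adjusted p = 0.000141). Snai2 at 6.53 ± 0.06 and Zeb1 at 6.46 ± 0.16 (SD, n = 3) passed (limma, adjusted p = 0.000145 and 0.00239). Zeb2 at 5.79 ± 0.14 (SD, n = 3) did not (limma, adjusted p = 0.312). These calls stand beside the 56.1% of all genes that passed. At the receptors' 99th percentile Zeb1 did not pass either (limma, adjusted p = 0.338), while Snai1 and Snai2 did.

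The Scribble genes encode the basolateral scaffolds. Dlg1, a scaffold of the membrane-associated guanylate kinase family that mice need for normal kidney and ureter development, read 8.98 on each array. It was 3.27 log2 units above the mean cutoff, the largest distance among the 10 genes, and higher than 92.7% of all genes (limma with the wider spread, adjusted p = 3.06e-06). Scrib, a scaffold of leucine-rich repeats and PDZ domains that mice need to close the neural tube, read 6.71 on each array, 1.00 log2 unit above the mean cutoff (limma with the wider spread, adjusted p = 0.00013). Llgl2, which the atypical kinase phosphorylates and so keeps off the apical membrane, read 6.37 on each array, 0.66 log2 units above the mean cutoff (limma with the wider spread, adjusted p = 0.00038). Llgl2 lay at -0.011 log2 units relative to the 99th percentile, and Scrib exceeded the cutoff raised by 1 log2 unit by only 0.0024 log2 units and did not pass there.

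**Figure D2:**
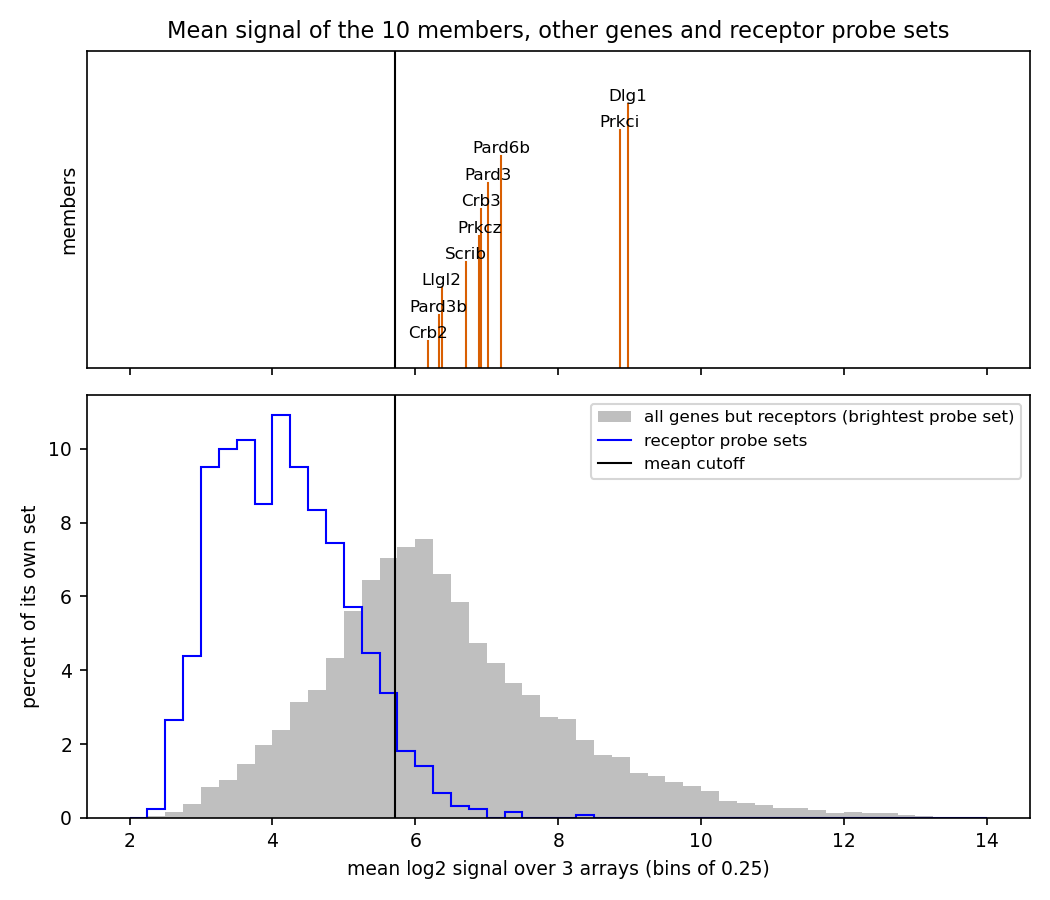
Mean log2 signal over the 3 arrays (x axis) of the 10 polarity genes (upper panel, 1 line per gene, heights only to separate the names) and, below, of all genes but the receptors and of the receptor probe sets, as percent of each set in bins of 0.25. All 10 genes stand right of the mean cutoff of 5.71, with 8 between 6.18 and 7.20 and Prkci and Dlg1 near 9.

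Placed against the receptor probe sets, the 10 genes fell into a bright pair and a dimmer rest. For Prkci and Dlg1 0 of the 1210 receptor probe sets reached their signals. For Pard3, Pard6b, Prkcz, Crb3 and Scrib 3 to 7 did, and for Llgl2, Pard3b and Crb2 the counts were 11, 12 and 20. Among all genes, the members' mean signals lay between the percentiles 54.1 (Crb2) and 92.7 (Dlg1).

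Identical values across the 3 arrays occurred for 9 of the 10 polarity genes, for 50.8% of all genes, and for 39.1% of the 8807 genes with means from 6 to 9, the range that holds all 10. Prkci and Dlg1 were both tied in the bin of 8 to 9, where 23.9% of genes were. Some of these values were also shared with unrelated probe sets. The value of Llgl2, 6.36776, was held on all 3 arrays by 42 other probe sets, and it also occurred for Zeb1 on arrays 2 and 3. The value of Pard3b was held by 21 other probe sets, 1 of them a receptor probe set, that of Scrib by 9, that of Pard6b by 5 and that of Crb2 by 1. The values of Prkci, Prkcz, Crb3 and Dlg1 were shared with 0 others. Of all tied probe sets, 83.2% shared their value with another tied one. Whether a shared value is specific to its gene was not tested.

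**Figure D3:**
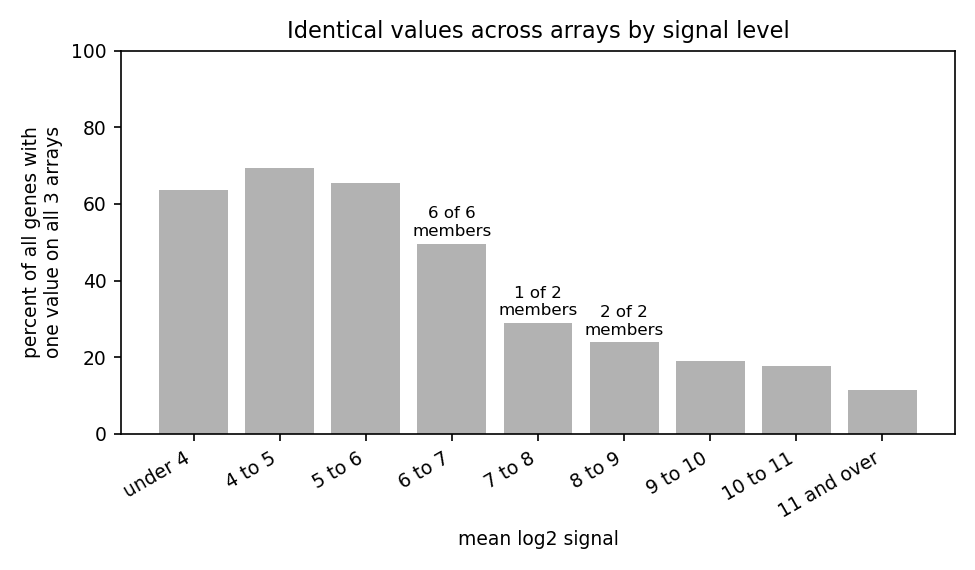
Percent of all genes whose deposited value was identical on the 3 arrays (y axis), by mean log2 signal (x axis), with the number of polarity genes so tied written above the bins that hold any. Above a signal of 5 the share falls with signal, to 11.4% at 11 and over, while 6 of 6, 1 of 2 and 2 of 2 polarity genes were tied in the bins from 6 to 9.

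Paralogues and partners of the members were looked at as 3 lists of 32 genes, all measured; 22 passed, with 56.1% of all genes, and their median signal was 6.80. In the Par list 9 of 13 passed. At the receptors' 99th percentile 7 did, with 36.1% of all genes. With the cutoff raised by 1 log2 unit 7 did, with 28.3% of all genes. The 2 paralogues of Pard6b did not: Pard6a read 5.41, 5.44 and 5.44 and Pard6g 5.54, 5.73 and 5.54 on arrays 1, 2 and 3, with means at -0.28 and -0.10 log2 units relative to the mean cutoff (limma, adjusted p = 1.0 for each). Cdc42, the GTPase that activates the Par6-bound kinase, read 11.65 ± 0.15, and Rac1, a related GTPase, 10.54 ± 0.04 (SD, n = 3). Of the Par1 kinases, which phosphorylate Par3 and keep it off the lateral membrane, Mark2 read 10.63 ± 0.18 from its brighter probe set and 7.32 ± 0.23 from the other, Mark3 read 8.79 ± 0.05, and Mark1, at 5.15 on each array, did not pass. Stk11 (Lkb1), the kinase upstream of the Par1 kinases, read 8.21 ± 0.28. Its partner Strada read 6.11 on each array, at -0.27 log2 units relative to the 99th percentile. Cab39, another partner, read 8.22 ± 0.16 from its brighter probe set (SD, n = 3). Its other probe set read 5.62 ± 0.12, did not pass (limma, adjusted p = 1.0), and had 20 of its 20 numbered neighbours on chromosome 7 and 0 on chromosome 1, where Cab39 lies. Tiam1, an exchange factor for Rac1 that binds Par3, stood 0.19 log2 units above the mean cutoff and at -0.47 relative to the 99th percentile. It had one value on each array, shared with 71 other probe sets. Tiam1 passed, but did not without array 3, in a fit that gave all genes one spread (limma, adjusted p = 0.147). Wwc1 (Kibra), an interactor of the atypical kinase, read 5.72 on each array, 0.01 log2 units above the mean cutoff, and did not pass.

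In the Crumbs list 6 of 8 passed, with 56.1% of all genes. At the receptors' 99th percentile 6 did, with 36.1% of all genes. With the cutoff raised by 1 log2 unit 5 did, with 28.3% of all genes. Mpp5, the gene of Pals1, which ties Crumbs to Patj, read 9.38 on each array, and Lin7c, which binds Pals1, read 9.98 ± 0.08 (SD, n = 3). Patj read 6.83, 6.83 and 6.51 on arrays 1, 2 and 3, and its relative Mpdz 6.95 on each array. Epb41l5, a band 4.1 protein that binds Crumbs, read 8.53 on each array, and Lin7b had one value on each array, 1.29 log2 units above the mean cutoff. The third Crumbs paralogue, Crb1, known for its part in the retina, read 5.09 on each array and did not pass, nor did Lin7a at 5.09.

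In the Scribble list 7 of 11 passed, with 56.1% of all genes. At the receptors' 99th percentile 6 did, with 36.1% of all genes. With the cutoff raised by 1 log2 unit 4 did, with 28.3% of all genes. Of the Discs large paralogues of Dlg1, Dlg5 read 7.69 ± 0.15, Dlg4 6.63 ± 0.25 (SD, n = 3) and Dlg3 6.58 on each array. All of these passed, while Dlg2 at 4.04 on each array did not. At the 99th percentile Dlg4 no longer passed (limma, adjusted p = 0.0647). With the cutoff raised by 1 log2 unit Dlg3 and Dlg4 lay at -0.13 and -0.08 log2 units relative to it. The paralogue of Llgl2, Llgl1, read 5.80, 5.56 and 5.80 on arrays 1, 2 and 3. Only array 2 lay below its cutoff, and Llgl1 did not pass over the 3 arrays (limma, adjusted p = 0.754). Without array 2 it passed (limma, adjusted p = 0.0132), but arrays 1 and 3 hold one identical value, so that p is too small. Among the leucine-rich repeat relatives of Scrib, Erbin read 9.99 ± 0.11 and passed, and Lrrc1 at 5.45 ± 0.08 and Lrrc7 at 4.06 on each array did not (SD, n = 3). Cask, a scaffold that binds Lin7, read 8.47 ± 0.04, and the Scribble-bound exchange factor Arhgef7 and its partner Git1 read 6.81 on each array and 6.78 ± 0.24 (SD, n = 3).

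All 18 measured genes of apical trafficking and the apical membrane passed, with 56.1% of all genes passing, and their median signal was 7.40, against 6.04 for all genes. Rab11a, Rab8a and Rab10, GTPases that carry vesicles to the apical or lateral surface, read 10.05 on each array, 9.14 ± 0.26 and 9.64 on each array (SD, n = 3). Dnmbp, an exchange factor that activates Cdc42 at the junctions, read 6.65 on each array. Podxl, the sialomucin of apical membranes and endothelium, was the dimmest at 6.22 ± 0.10 (SD, n = 3). It lay at -0.16 log2 units relative to the 99th percentile. Muc1 read 6.81, 5.94 and 6.81 on arrays 1, 2 and 3, lowest on array 2, and its pass (limma, adjusted p = 0.0372) ended without array 1 and with olfactory receptors alone as background (limma, adjusted p = 0.0548 and 0.0532). At the 99th percentile 14 of the 18 passed, with 36.1% of all genes, and 11 did with the cutoff raised by 1 log2 unit, with 28.3% of all genes.

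**Figure D4:**
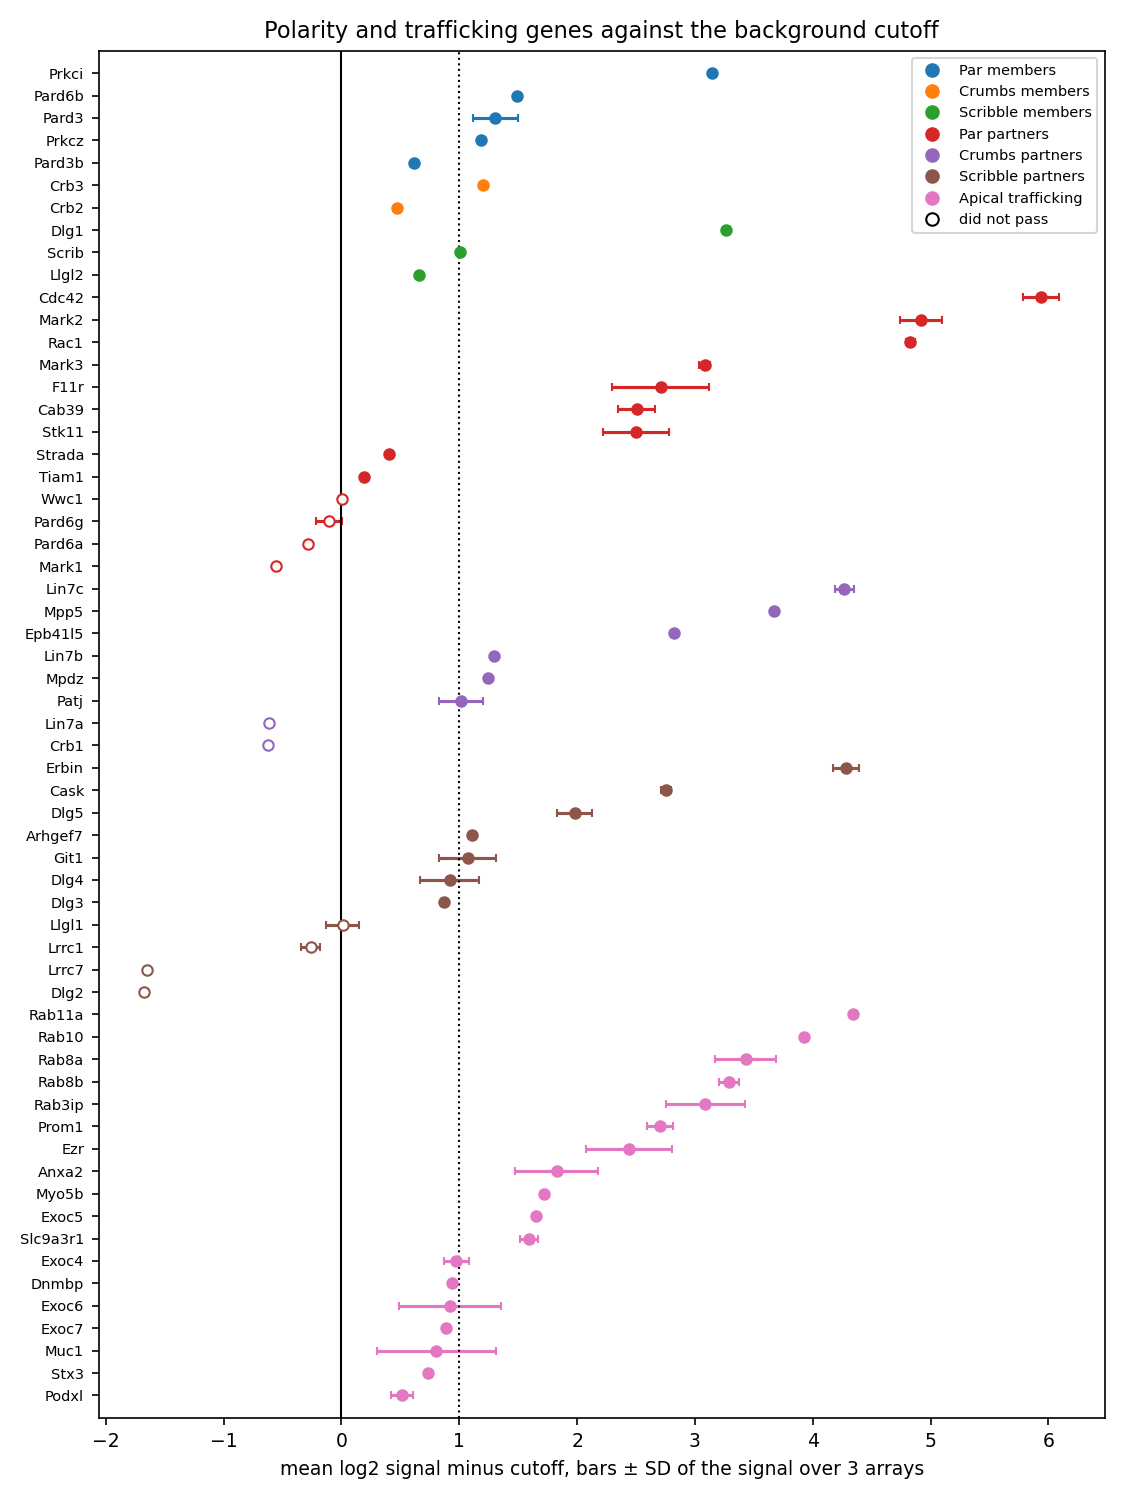
Mean log2 signal minus the mean cutoff (x axis; bars ± SD of the signal over 3 arrays, absent for tied genes) for the 10 polarity genes, then their 32 partners and paralogues and 18 apical trafficking genes, sorted within each list. Open circles mark the 10 genes that did not pass, all of them partners or paralogues, and the dotted line marks 1 log2 unit.

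The cell type was checked against marker lists. All 12 duct markers and all 6 epithelial markers passed, with medians of 7.53 and 9.12, while 4 of 9 metanephric mesenchyme, 2 of 8 stromal, 3 of 5 coelomic epithelial, 2 of 4 measured neural or neural crest, 1 of 6 macrophage and 1 of 6 measured red cell markers did. These counts stand beside the 56.1% of all genes that passed, a share near those of the mesenchymal, coelomic and neural lists. With the wider spread for tied probe sets 3 mesenchyme, 1 stromal and 2 macrophage markers passed, with 10886 of all 19938 genes. The counts of the other marker lists did not change. The embryonic globin Hbb-y had a signal of 10.02 in array 1, with 5.31 in array 2 and 5.45 in array 3. The globins Hba-x and Hbb-bh1 were highest on array 1 too, while Gata1 read 6.03, 6.03 and 6.12 on arrays 1, 2 and 3 and Alas2 and Klf1 were tied. Pard3 read 7.15 on array 1 and 7.10 on array 2, and the part of red cell RNA in its values was not tested. Endothelial markers passed in 12 of 13 cases, at array medians of 7.82, 7.21 and 7.76 on arrays 1, 2 and 3, and 12 of the 13 were lowest on array 2. Endothelial cells use Par genes as well, and in RNA of whole sorted samples more cells of a type and more RNA per cell cannot be told apart. The only untied member, Pard3, did not follow this pattern: its array 2 value lay 0.12 log2 units above the mean of the other arrays, where the endothelial markers' median difference was -0.88. Among the 30 untied polarity and trafficking genes 9 were lowest on array 2, with a median difference of -0.02. Of all 9809 untied genes, 2069 were lowest on array 2. The lowest differences were -0.87 for Muc1, -0.72 for F11r, the junctional adhesion molecule that binds Par3 and is known in epithelium and endothelium, and -0.60 for Anxa2. The highest differences were 0.65 for Exoc6 and 0.55 for Rab3ip. F11r read 8.66, 7.94 and 8.66 on arrays 1, 2 and 3. The part of endothelial RNA in these values was not tested, and for the 9 tied members the arrays hold no difference to set beside the endothelial markers.

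**Figure D5:**
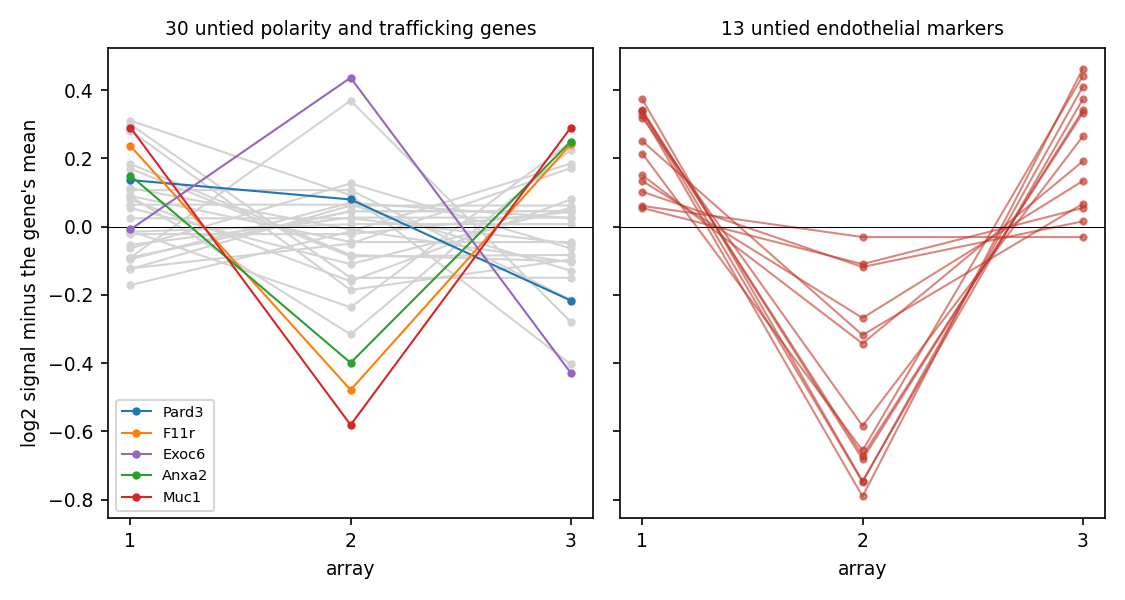
Log2 signal on each array minus the gene's mean over the 3 arrays (y axis) for the 30 untied polarity and trafficking genes (left, 5 coloured) and the 13 endothelial markers (right); lines join the values of one gene and imply no order of the arrays. Array 2 lies lowest for 9 of the 30 genes on the left, among them Muc1, F11r and Anxa2, and for 12 of the 13 markers on the right, while Pard3 is lowest on array 3.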

How the data were processed

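RNA of 3 sorted duct samples was measured on 1 Affymetrix array each. The deposited table holds the authors' summarised values for 35557 probe sets, read here as log2 signals from their range, 1.90 to 14.2, with array medians of 5.85 to 5.90. Affymetrix Expression Console is named per the submitters' processing notes; its algorithm, background correction, normalization and build were not given in the sources used here, and no scanner files were used. Identical values on several arrays carry no spread, whatever step made them.

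The platform annotation gave a single symbol to 21789 probe sets (19938 genes, 999 with more than 1 probe set). Probe sets with several symbols (1621) or none (12147) were left out, and a gene took its brightest probe set. Entrez numbers matched the GRCm38.p6 gene table for 21698 probe sets, and 0 symbols changed. Each array's cutoff was subtracted, and limma 3.58.1 under R 4.3.3 tested whether the mean exceeded 0, one-sided, moderated by empirical Bayes (prior degrees of freedom 1.13) and with Benjamini-Hochberg adjustment. The procedure was checked on simulated data that held no tied values, so the check does not cover tied genes. The wider spread replaced the residual SD of tied probe sets by the median of untied ones in 20 bins of signal. Alternatives changed the cutoff, the receptor set, the probe set rule, the filter, the scaling and the arrays used. Named genes are every member with all its probe sets, and genes of the partner, trafficking and marker lists. The members and lists were chosen with earlier results of these data known. Arrays' number limits the precision.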

Additional observations from a re-analysis of the deposited data

How the results depend on the processing

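All 10 polarity genes passed without each array in turn (10 to 10). For the 9 tied members leaving out an array changes the cutoff and the fit but not the signal, so this says little about them. All 10 also passed at the receptors' 90th percentile and the 30th percentile of all probe sets. These are easier tests, with mean cutoffs of 5.40 and 4.98 against 5.71. The genes passed as well with olfactory receptors alone and with the wider spread for tied probe sets. The same held with probe sets above the median signal only and with the mean over a gene's probe sets. The share of all genes was computed for the wider spread (10886 of 19938) but not for the other settings named so far. Centring each array on its median moves values and cutoff alike and so changes nothing by construction. At the 99th percentile 7 passed, with 36.1% of all genes, and Pard3b, Crb2 and Llgl2 lay below the cutoff by -0.053, -0.20 and -0.011 log2 units. With the cutoff raised by 1 log2 unit 5 members and 11 trafficking genes passed, with 28.3% of all genes. Pard3b, Crb2 and Llgl2 then lay at -0.38, -0.53 and -0.34, and Pard3 at 0.31 (limma, adjusted p = 0.0628) and Scrib at 0.0024 did not pass. With the dimmest probe set of each gene 9 members passed, all but Prkcz. The partner count of 22 ranged from 21 to 23 without single arrays and from 16 to 30 over the other settings, and the trafficking count of 18 from 17 to 18 without single arrays. Without array 3 limma gave all genes one spread, so that fit does not show how far calls rest on that array. No paired analysis was possible because the samples form a single group. The signal over background limits the calls of Pard3b, Crb2 and Llgl2.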
